A study of Homo sapiens with 9 samples.

Results

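The T cell receptor complex and its proximal kinases were followed through 9 genes, CD3D, CD3E, CD3G, CD247, TRAT1, LCK, ZAP70, LAT and LCP2. The genes were chosen by name, with earlier results of these data known, and taken at all of their probe sets. The array held 18 such probe sets of 54613 in all and 9 such genes of 19775, and 0 of the 18 were listed with another gene as well. The cells were Jurkat, an established human T lymphocyte line, and total RNA was taken 4 h after exposure. Sham cells were placed in the pulser with no power applied, and nsEP cells received 100 nanosecond electrical pulses (nsEP), each 10 ns long and with a field of 150 kV/cm. Heat shocked cells were warmed in a water bath. All 3 groups were treated in electroporation cuvettes and held 3 arrays each, labelled as biological replicates. The study compared nsEP with sham and with heat shock, the latter as another kind of stress, to ask which stress the pulsed cells had met.

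The T cell receptor binds antigen through its alpha and beta chains but signals through the CD3 chains that travel with it. CD3D, CD3E and CD3G encode the delta, epsilon and gamma chains, and CD247 encodes the zeta chain, all of which carry the tyrosine motifs that LCK phosphorylates. ZAP70 docks on those motifs and phosphorylates LAT, a membrane adaptor, and LCP2, a cytosolic adaptor, which together gather the enzymes that raise calcium and switch on RAS. TRAT1 encodes a transmembrane adaptor that associates with the receptor, and much of what is known of this pathway was worked out in Jurkat cells.

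Promoter windows of TRAT1, CD247 and CD3D are given because TRAT1 was the member that fell after heat shock, CD247 had the next lowest difference among the 9 genes and CD3D is a CD3 chain that did not pass the test. Each runs from 250 bases before to 50 bases after the RefSeq start on GRCh38.p14, is written 5′ to 3′ on the gene's strand and has matches to the searched motifs in capitals.
TRAT1, chr3:108822536-108822835, plus strand: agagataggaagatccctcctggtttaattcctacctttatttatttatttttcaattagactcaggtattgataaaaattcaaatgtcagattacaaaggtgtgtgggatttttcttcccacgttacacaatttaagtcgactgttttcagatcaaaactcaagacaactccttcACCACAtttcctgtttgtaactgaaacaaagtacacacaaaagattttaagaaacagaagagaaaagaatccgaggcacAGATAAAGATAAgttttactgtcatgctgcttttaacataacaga
CD247, chr1:167518480-167518779, minus strand: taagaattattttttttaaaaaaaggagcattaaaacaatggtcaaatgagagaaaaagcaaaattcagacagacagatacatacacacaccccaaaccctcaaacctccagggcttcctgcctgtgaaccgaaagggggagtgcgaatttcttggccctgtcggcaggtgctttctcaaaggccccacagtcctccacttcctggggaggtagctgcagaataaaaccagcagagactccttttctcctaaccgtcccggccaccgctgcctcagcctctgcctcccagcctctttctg
CD3D, chr11:118342656-118342955, minus strand: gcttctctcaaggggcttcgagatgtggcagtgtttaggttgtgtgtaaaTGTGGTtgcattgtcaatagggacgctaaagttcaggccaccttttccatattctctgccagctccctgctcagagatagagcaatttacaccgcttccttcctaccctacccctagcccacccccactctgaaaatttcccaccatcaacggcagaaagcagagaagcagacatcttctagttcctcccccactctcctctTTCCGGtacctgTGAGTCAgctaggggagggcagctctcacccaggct
Of the 9 genes, 7 had windows in the table, 11 in all, and CD3E and CD3G had none. CD3E, CD3D and CD3G lie next to each other on chromosome 11.

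The TRAT1 window was poor in G and C. Its GC content was 33.3%, with 3 CpG dinucleotides, against 49.3% and 6 for CD247, 52.3% and 5 for CD3D and a median of 58.7% and 14 over 34796 windows. Only 3.15% of all windows had a GC content as low as that of TRAT1 or lower. Motif letters were searched on both strands, with distances counted from the start as 0. The heat shock element letters GAANNTTC were in 0 of the 11 member windows and in 6.79% of all windows, and the TATA box letters TATAAA were in 0 and in 11.6%. The RUNX letters TGTGGT were in 4 member windows (13.1% of all) and stood in TRAT1 on the reverse strand at -74. The GATA letters AGATAA were in 1 member window (10.4% of all), that of TRAT1, in copies that begin 5 and 11 bases after the start and lie side by side. The ETS letters CCGGAA were in 2 member windows (17.2% of all) and the AP-1 letters TGACTCA in 3 (4.96% of all), CD3D with both. These matches describe letters in a window and were not tested for binding or for any effect.

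Values are log2 of the array signal, so a difference of 1 is a doubling, and signals of different probe sets were not compared as amounts. The median log2 signal of an array was 6.25 to 6.43 in sham and nsEP samples and 6.65 to 6.72 after heat shock, and the poly-A spike-in controls read 8.97 to 10.1 in the former and 10.2 to 10.9 in the latter. Over all probe sets the median difference of heat shock from sham was 0.18, which moved to -0.13 when arrays were centred on their medians and to -0.77 when they were scaled to the spike-ins. The 3′ minus 5′ difference of GAPDH had group means of 0.14, 0.08 and -0.03 in sham, nsEP and heat shock. On nsEP replicate 3 it was 0.56, against -0.22 and -0.11 on nsEP replicates 1 and 2. That of ACTB was 1.26 on sham replicate 1 and 1.24 on nsEP replicate 3, against 0.31 to 0.79 on the other arrays. On the second principal component nsEP replicate 3 lay far from the remaining arrays (173, against -62.6 to 30.6). HSPA6, a stress inducible chaperone, rose by 8.77 after heat shock (limma adjusted p = 1.0e-08). After nsEP it differed from sham by 1.39 and did not pass (adjusted p = 0.208). FOS, an immediate early gene, rose by 7.27 after nsEP (adjusted p = 3.3e-06) and by 9.20 after heat shock (adjusted p = 6.0e-08). FOS was thus lower after nsEP than after heat shock (-1.93, adjusted p = 0.0150). All 9 members lay in the brightest quartile of probe sets at the probe set that stands for the gene, the one with the highest mean signal. So did 11 of 13 measured T cell markers outside the members.

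After nsEP none of the 9 genes passed the test. The limma test at an adjusted p under 0.05 called 0 of 18 probe sets, where 0.0586% of all probe sets were called (0.0513% higher and 0.00732% lower), and 0 of 18 had an unadjusted p under 0.05, where 7% of all did. The smallest adjusted p was 0.774. At the probe sets that stand for the genes, differences of nsEP from sham ran from -0.26 for LCP2 to 0.27 for CD3G. The 95% confidence intervals of the 9 genes, each taken singly, together spanned -0.70 to 0.84. Within these intervals, at these probe sets, a member could have changed by up to 1.78-fold, the upper limit of TRAT1. The upper limit was 1.85-fold at the other LCK probe set and 3.64-fold at a dim LCP2 probe set, 244556_at. The median of the 18 probe sets was 0.12, against -0.01 for all probe sets. In this comparison 1 of the 18 had groups that did not overlap, where 11.6% of all probe sets did.

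After heat shock TRAT1 fell and no other member passed the test. In heat shock against sham the test called 1 of 18 probe sets, TRAT1 (4.17% of all probe sets called, 2.36% lower and 1.81% higher), and 4 of 18 had an unadjusted p under 0.05, where 18.1% of all did. The median of the 18 was 0.01, against 0.18 for all probe sets and 0.05 for those at or above the median signal. In 5 of 18 the groups did not overlap, where 26.5% of all did. The other 8 genes differed by -0.57 to 0.38 with intervals that spanned -0.98 to 0.81. With nsEP set against heat shock the test again called 1 of 18, TRAT1 as higher after nsEP (4.96% of all called, 2.31% higher and 2.65% lower). Here 4 of 18 had an unadjusted p under 0.05 (18.9% of all), and 5 of 18 had groups that did not overlap (23.1% of all). The comparisons with sham share the sham arrays and both comparisons with heat shock share the heat shock arrays, so they are not separate evidence.

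**Figure D1:**
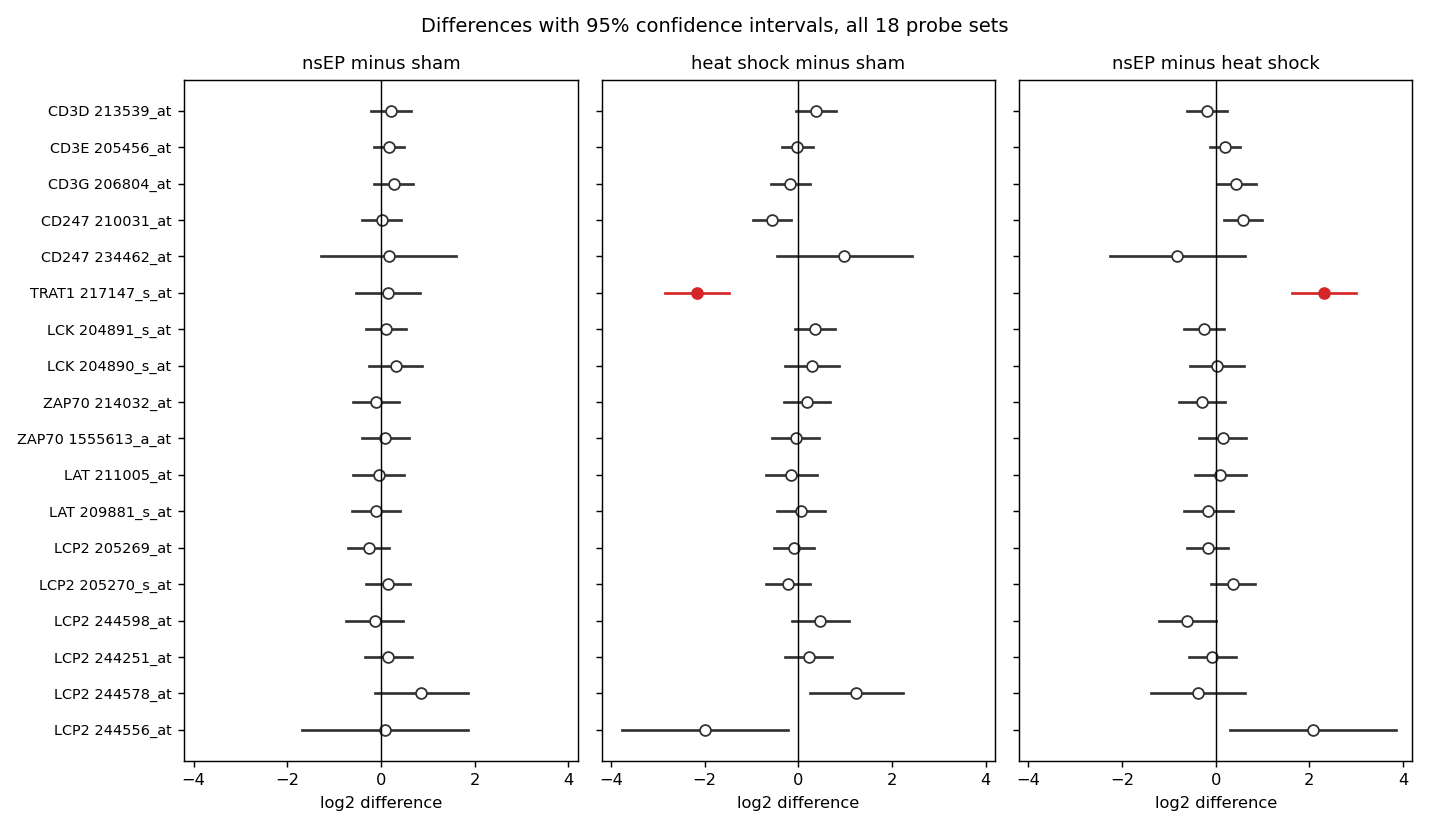
Log2 differences with 95% confidence intervals of the 18 probe sets in the 3 comparisons, with filled red points for an adjusted p under 0.05. TRAT1 is the red point at -2.16 for heat shock minus sham and at 2.31 for nsEP minus heat shock, and no point is filled for nsEP minus sham.

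TRAT1, the receptor associated transmembrane adaptor, was measured by 1 probe set, 217147_s_at. It read 11.40, 11.65 and 10.90 on sham arrays 1 to 3, 12.15, 11.19 and 11.06 on nsEP arrays 1 to 3, and 9.53, 8.55 and 9.40 on heat shock arrays 1 to 3. Every heat shock array lay below every sham and nsEP array, whereas the sham and nsEP arrays overlapped. The group means were 11.32 ± 0.39 in sham, 11.47 ± 0.60 in nsEP and 9.16 ± 0.54 in heat shock (SD, n = 3 each).

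TRAT1 signal was 4.46-fold lower after heat shock than in sham (95% interval 2.77 to 7.19), a log2 difference of -2.16 with SE 0.32 and limma adjusted p = 0.0020. It was 4.95-fold higher after nsEP than after heat shock (interval 3.07 to 7.97, log2 difference 2.31, adjusted p = 0.0012). In bulk RNA, fewer cells carrying a transcript and less of it per cell cannot be told apart. After nsEP TRAT1 differed from sham by 0.15 (interval -0.54 to 0.84, adjusted p = 0.971). Among the 27307 probe sets at or above the median signal, the fall of TRAT1 after heat shock was the 36th largest. Measured against the median of all probe sets, the difference from sham was -2.34 as deposited and -2.09 under quantile normalization.

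The fall of TRAT1 was called with each array left out in turn, with adjusted p from 0.0047 to 0.0139 and log2 differences from -2.37 to -1.85 against sham, and for nsEP against heat shock with adjusted p from 0.0016 to 0.0055 and differences from 1.97 to 2.51. Without nsEP replicate 3 TRAT1 was 2.51 higher after nsEP than after heat shock (adjusted p = 0.0016). The methods' t-test on the same values, which has fewer degrees of freedom, gave adjusted p of 0.117 against sham and 0.169 for nsEP against heat shock, neither of which passed. An exact permutation test of 3 arrays against 3 cannot go below p = 0.1.

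**Figure D2:**
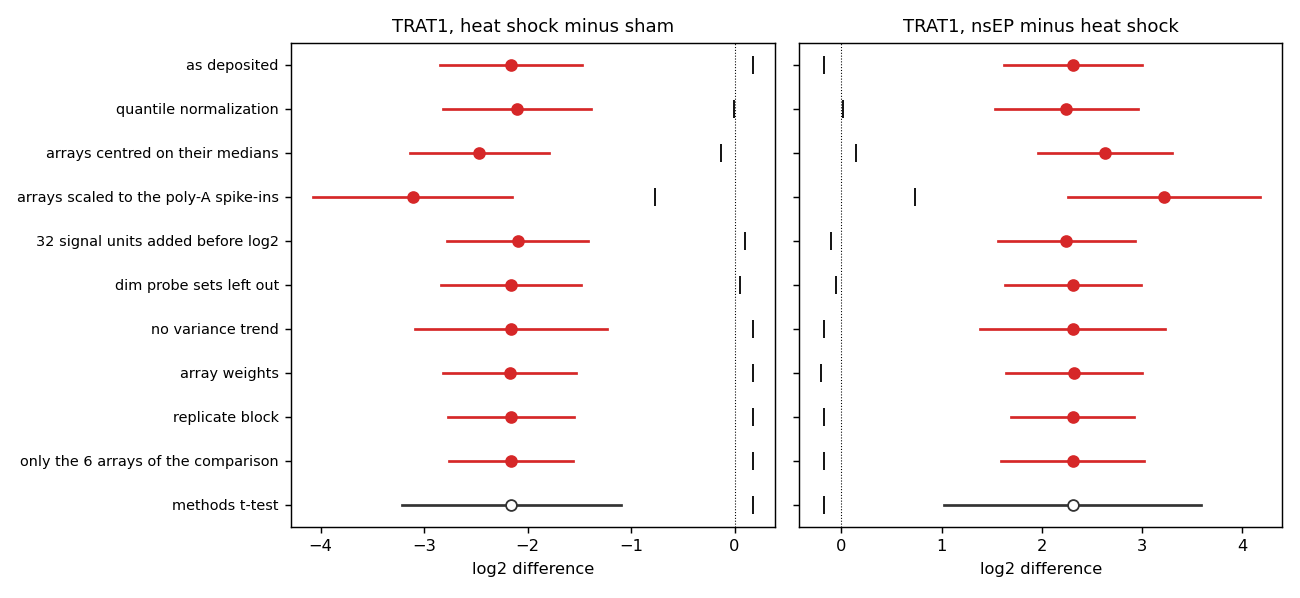
TRAT1 log2 difference with its 95% confidence interval under each processing setting, for heat shock minus sham and nsEP minus heat shock. Filled red points passed an adjusted p of 0.05, and black ticks mark the median of all probe sets under that setting. The point runs from -3.11 with spike-in scaling to -2.09 with 32 signal units added against sham, and only the methods' t-test has open points.

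CD3D, the delta chain, read 14.51, 14.34 and 14.65 in sham, 14.52, 14.51 and 15.09 in nsEP and 14.66, 15.08 and 14.92 in heat shock at its 1 probe set. The heat shock arrays all lay above the sham arrays, although sham replicate 3 and heat shock replicate 1 were nearly level, and the difference was 0.38 (interval -0.05 to 0.81, adjusted p = 0.335). Its sign depended on the scaling, at -0.07 under quantile normalization and -0.57 with spike-in scaling. CD3E, the epsilon chain, read 9.82, 9.98 and 9.97 in sham, 9.94, 10.30 and 10.04 in nsEP and 9.86, 9.97 and 9.85 in heat shock. Its groups overlapped, it had the smallest spread within groups of the 18 probe sets (SD 0.12), and its difference from sham was 0.17 after nsEP (interval -0.16 to 0.50) and -0.03 after heat shock (interval -0.36 to 0.30).

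CD3G, the gamma chain, read 11.71, 11.87 and 12.40 in sham, 12.47, 12.06 and 12.26 in nsEP and 11.74, 11.70 and 12.02 in heat shock. Every nsEP array lay above every heat shock array, with sham replicate 3 as high as the nsEP arrays. The nsEP arrays were 0.44 above heat shock (interval 0.03 to 0.86, adjusted p = 0.232), which passed only when arrays were centred on their medians (0.77, adjusted p = 0.0321) or scaled to the spike-ins (1.36, adjusted p = 0.0430).

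CD247, the zeta chain, had the lowest heat shock difference after TRAT1 at the probe sets that stand for the genes. Its probe set 210031_at read 12.03, 12.48 and 12.52 in sham, 12.08, 12.56 and 12.43 in nsEP and 11.72, 12.04 and 11.56 in heat shock. The heat shock arrays lay below all nsEP arrays, while heat shock replicate 2 and sham replicate 1 were level at the edge of their groups. The difference of heat shock from sham was -0.57 (SE 0.19, interval -0.98 to -0.16, adjusted p = 0.127), a 1.48-fold lower signal, and that of nsEP from heat shock was 0.58 (interval 0.17 to 0.99, adjusted p = 0.107). Neither passed as deposited. Both passed with arrays centred on their medians (-0.87, adjusted p = 0.0232, and 0.91, adjusted p = 0.0189) and with spike-in scaling (-1.52, adjusted p = 0.0268, and 1.498, adjusted p = 0.0339), so the call for CD247 depends on how arrays are scaled to each other. Its other probe set, 234462_at, was in the dimmest quartile, at 2.04 to 2.66 on all sham and nsEP arrays and 2.68, 4.02 and 2.85 after heat shock, and did not pass (0.98, adjusted p = 0.474).

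LCK, the kinase that phosphorylates the CD3 motifs, read 14.23, 14.08 and 14.21 in sham, 13.94, 14.16 and 14.73 in nsEP and 14.39, 14.70 and 14.51 in heat shock at 204891_s_at. The heat shock arrays lay above the sham arrays, and the nsEP arrays ran across both groups with replicate 3 highest. Differences from sham were 0.10 after nsEP (interval -0.33 to 0.53) and 0.36 after heat shock (interval -0.07 to 0.79, adjusted p = 0.376). The latter turned to -0.03 under quantile normalization and to -0.60 with spike-in scaling. At its other probe set, 204890_s_at, they were 0.31 (interval -0.26 to 0.89) and 0.29 (interval -0.29 to 0.86), with sham replicate 1 at 11.82 and all other arrays between 12.23 and 13.06.

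ZAP70, the kinase that docks on phosphorylated CD3 motifs, read 12.20, 12.08 and 12.09 in sham, 11.68, 12.001 and 12.37 in nsEP and 12.09, 12.82 and 12.02 in heat shock at 214032_at. The sham arrays were close together (SD 0.07), and both exposed groups spread around them (SD 0.34 and 0.45). Differences from sham were -0.11 after nsEP (interval -0.59 to 0.37) and 0.19 after heat shock (interval -0.30 to 0.67). The other probe set, 1555613_a_at, gave 0.09 and -0.06, with intervals from -0.56 to 0.60.

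LAT, the membrane adaptor, read 12.02, 12.32 and 11.98 in sham, 11.62, 12.13 and 12.43 in nsEP and 11.44, 12.42 and 12.03 in heat shock at 211005_at. All 3 groups overlapped. Its differences from sham were -0.05 after nsEP (interval -0.59 to 0.49) and -0.15 after heat shock (interval -0.69 to 0.39), and those of 209881_s_at were -0.10 and 0.05.

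**Figure D3:**
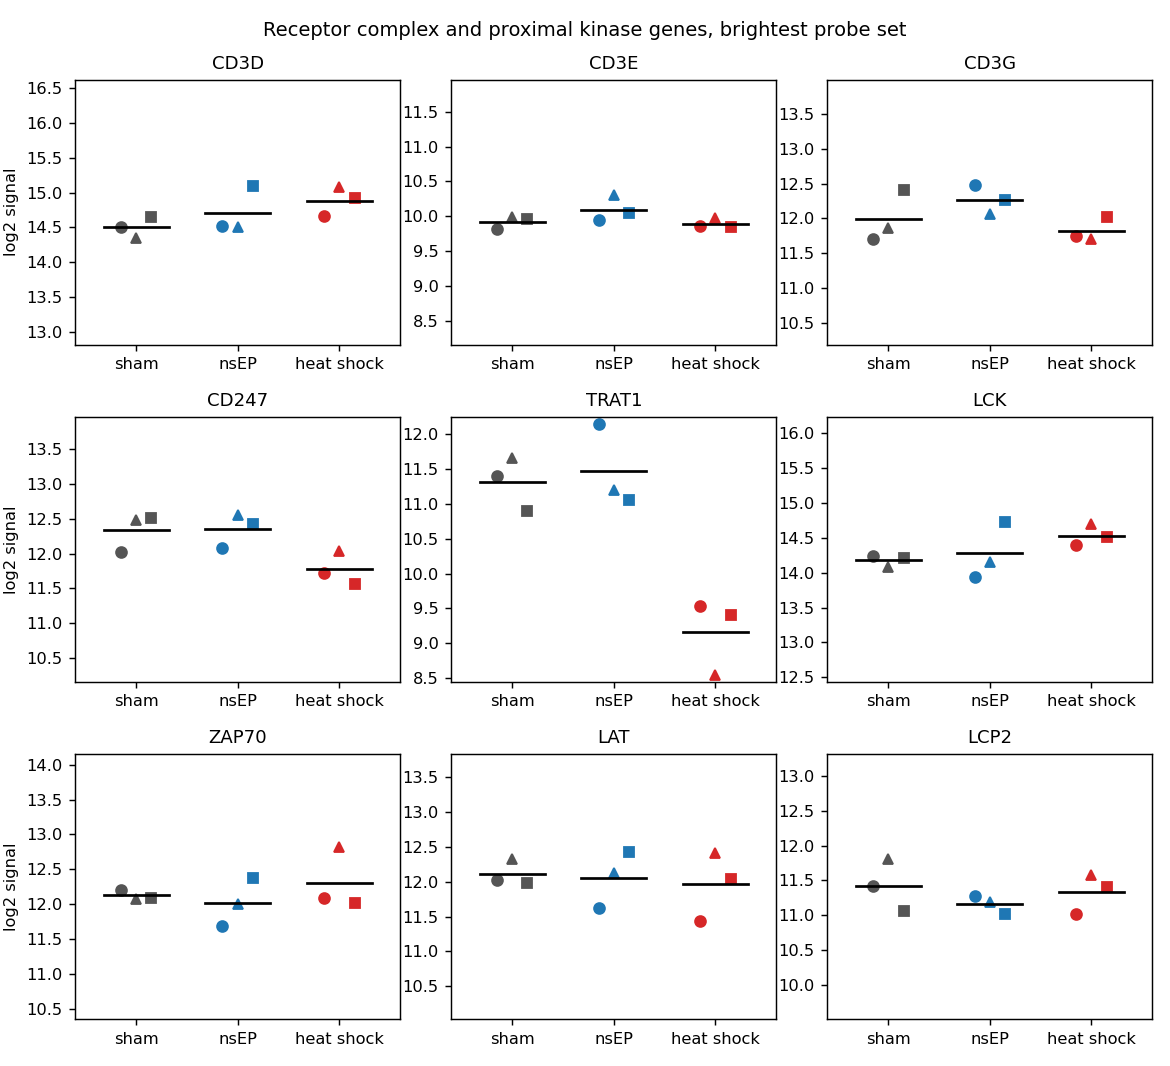
Log2 signal of the 9 genes on each of the 9 arrays at the probe set with the highest mean signal, by group, with circles, triangles and squares for replicates 1, 2 and 3 and a bar for the group mean. All panels cover the same log2 span. TRAT1 is the only panel in which the heat shock points (8.55 to 9.53) lie well below the sham points (10.90 to 11.65), and CD247 shows a smaller step.

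LCP2, the cytosolic adaptor, had 6 probe sets, and they did not run alike. The brightest, 205269_at, read 11.42, 11.80 and 11.05 in sham, 11.28, 11.18 and 11.02 in nsEP and 11.02, 11.57 and 11.40 in heat shock, with overlapping groups and a difference of -0.09 after heat shock (interval -0.53 to 0.34). Of the other 5, 205270_s_at, 244598_at and 244251_at differed from sham by -0.22, 0.47 and 0.22 after heat shock and by 0.15, -0.13 and 0.15 after nsEP, none past the test.

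The 2 dimmest LCP2 probe sets, both in the lower part of the signal range, went opposite ways after heat shock. Probe set 244578_at read 4.43, 5.24 and 5.00 in sham, 6.01, 5.60 and 5.63 in nsEP and 6.13, 6.08 and 6.17 in heat shock, so both exposed groups lay above sham, and heat shock above nsEP. It was 1.24 above sham after heat shock (interval 0.24 to 2.23, adjusted p = 0.171) and 0.86 above it after nsEP (interval -0.14 to 1.85, adjusted p = 0.774). Probe set 244556_at read 5.03, 6.39 and 6.38 in sham, 6.64, 6.35 and 5.09 in nsEP and 3.38, 5.86 and 2.58 in heat shock. Heat shock replicate 2 lay among the sham and nsEP arrays and the other heat shock arrays far below them, for a difference of -1.99 from sham (interval -3.76 to -0.22, adjusted p = 0.218) and of 2.08 for nsEP from heat shock (adjusted p = 0.184). With spike-in scaling it passed in both (-2.94, adjusted p = 0.0404, and 3.00, adjusted p = 0.0442). Without heat shock replicate 2 the difference of nsEP from heat shock was 3.04 and passed (adjusted p = 0.0437), and that of heat shock from sham was -2.95 and did not (adjusted p = 0.0564).

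Heat shock replicate 2 was the highest array of its group in 15 of the 18 member probe sets and in 7 of the 9 genes at the probe set that stands for the gene. TRAT1, where it was the lowest, was among the exceptions. Without it the fall of TRAT1 was -1.85 against sham (adjusted p = 0.0095). In sham, replicate 1 was lowest in 12 of the 18 but in only 3 of the 9 genes. The spread of TRAT1 within groups (pooled SD 0.51) was above the 0.24 that is the median of its signal quartile.

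The wider pathway was covered by 76 genes in 5 lists, of which 68 were measured under a symbol of their own, SYK standing on 2 lists. The lists were chosen with earlier results of these data known, so their shares beside those of all genes are descriptions. After nsEP 0 of the 68 passed at the probe set that stands for the gene (0.0607% of all genes called, 0.0506% higher and 0.0101% lower), and their median difference was 0.04 against -0.02 for all genes. After heat shock 6 fell and 0 rose, 8.82% of the 68 against 5.71% of all genes called, 3.99% lower and 1.72% higher. In nsEP against heat shock 7 were higher after nsEP and 0 lower, 10.3% of the 68 against 5.99% of all genes called, 3.83% higher and 2.16% lower. Of the 6, 4 stand on the list of other adaptors and 2 on that of other kinases and phosphatases, which hold 17 and 15 of the measured genes. The median of the 68 was 0.03 after heat shock and 0.06 for nsEP against heat shock, against 0.14 and -0.14 for all genes. Most of these genes were bright, and over probe sets at or above the median signal the medians were 0.05 and -0.06. A fit of these 27307 probe sets alone called 1711 lower and 1006 higher after heat shock, with 9 pathway genes lower and 0 higher. The part of signal level in the gap from all genes was not tested.

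**Figure D4:**
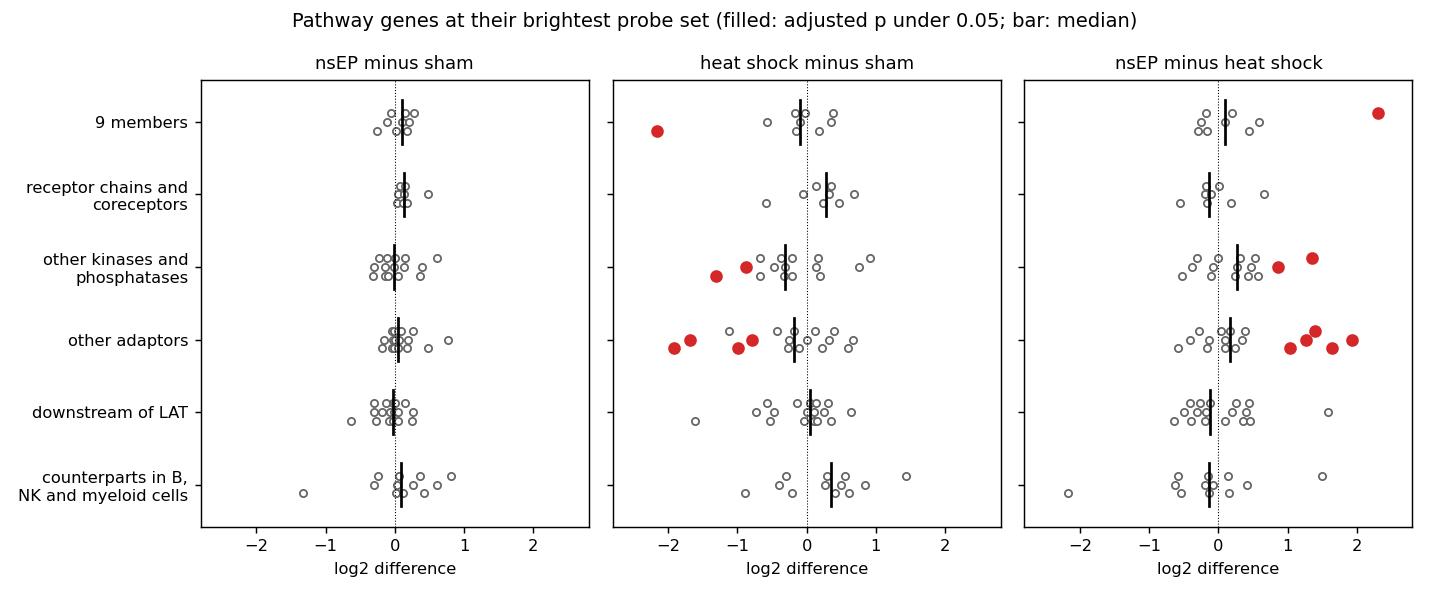
Log2 differences of the 9 members and of the genes of the 5 pathway lists at the probe set that stands for each gene, in the 3 comparisons, with filled red points for an adjusted p under 0.05 and a bar at the list's median. Filled points appear only with heat shock in the comparison, for TRAT1, 2 genes of the kinase list and 4 or 5 of the adaptor list.

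Over the other adaptors the median difference from sham was 0.04 after nsEP and -0.18 after heat shock, against -0.02 and 0.14 for all genes. After heat shock 4 of the 17 measured adaptors fell, where 3.99% of all genes were called lower, and 5 were higher after nsEP than after heat shock, where 3.83% of all genes were called higher. SLA, an adaptor that dampens receptor signalling and promotes CD3 zeta breakdown, read 12.47, 12.96 and 12.76 in sham, 12.35, 13.03 and 12.83 in nsEP and 10.56, 11.33 and 10.56 in heat shock. All heat shock arrays lay below all others, and the fall was -1.91 (SE 0.24, adjusted p = 0.00064). Its other probe set, 203760_s_at, gave -0.94 (adjusted p = 0.0576).

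THEMIS, an adaptor that binds GRB2 in thymocytes and T cells, read 11.90, 11.75 and 11.73 in sham, 12.08, 11.72 and 11.48 in nsEP and 10.49, 9.60 and 10.26 in heat shock. Sham and nsEP overlapped and heat shock lay below both, with a fall of -1.68 (SE 0.22, adjusted p = 0.00096), and its other probe set, 1558971_at, fell by 1.89 (adjusted p = 0.0016). LAX1, a LAT-like membrane adaptor that acts as an inhibitor, read 9.86, 10.15 and 10.00 in sham, 10.09, 10.70 and 10.66 in nsEP and 9.30, 9.25 and 9.09 in heat shock. It was lowest on the heat shock arrays and overlapped between sham and nsEP, where it differed by 0.48 (adjusted p = 0.614). SH2D2A, an adaptor that binds LCK, was 0.77 above sham after nsEP (adjusted p = 0.698).

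The fall of LAX1 from sham was -0.79 (SE 0.18, adjusted p = 0.0318) and did not pass with any 1 of the 6 arrays left out (adjusted p up to 0.129), while its difference of nsEP from heat shock, 1.27 (adjusted p = 0.0018), passed with each left out. CD2AP, an adaptor that links CD2 to the cytoskeleton, fell by 0.99 (adjusted p = 0.0107), and not past the test without sham replicate 2 (adjusted p = 0.0557). Its other probe set, 236257_at, which was dim, gave 0.67 and did not pass. GRAP, a GRB2-like adaptor, differed from sham by -1.12 after heat shock (adjusted p = 0.0718), which passed under quantile normalization, centring, spike-in scaling, array weights and with dim probe sets left out. For nsEP against heat shock it passed (1.39, adjusted p = 0.0250), but not without nsEP replicate 1, nsEP replicate 2 or heat shock replicate 3 (adjusted p up to 0.0916).

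Among the 15 measured other kinases and phosphatases 2 fell after heat shock, where 3.99% of all genes were called lower. The list's median difference from sham was -0.01 after nsEP and -0.31 after heat shock, against -0.02 and 0.14 for all genes. RHOH, a GTPase without GTP hydrolysis that brings ZAP70 and LCK to the receptor, read 11.54, 11.68 and 11.77 in sham, 11.60, 12.04 and 11.48 in nsEP and 10.54, 10.24 and 10.29 in heat shock. The heat shock arrays lay below all others, and the fall was -1.31 (SE 0.17, adjusted p = 0.00092), which passed under all 16 alternatives in which it was tested. A dimmer RHOH probe set, 236293_at, did not follow it, at -0.34 for heat shock from sham (adjusted p = 0.809) and -1.03 for nsEP from heat shock (adjusted p = 0.378). ABL1, a tyrosine kinase that also acts on ZAP70 and LAT, read 10.72, 10.71 and 10.75 in sham, 10.41, 10.80 and 10.95 in nsEP and 9.84, 10.04 and 9.69 in heat shock. It fell by 0.87 (SE 0.17, adjusted p = 0.0114), but not past the test without heat shock replicate 1 or 3 (adjusted p up to 0.0576). PTPN22, a phosphatase that acts on LCK and ZAP70, was 0.61 above sham after nsEP (adjusted p = 0.535). SYK, the kinase related to ZAP70, differed from sham by -0.29 after nsEP (adjusted p = 0.852). FYN passed at 1 of its 5 probe sets, 216033_s_at, as higher after nsEP than after heat shock (1.15, adjusted p = 0.0229). Its brightest, 210105_s_at, gave 0.47 (adjusted p = 0.119), and the 5 ran from -0.67 to 1.15.

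**Figure D5:**
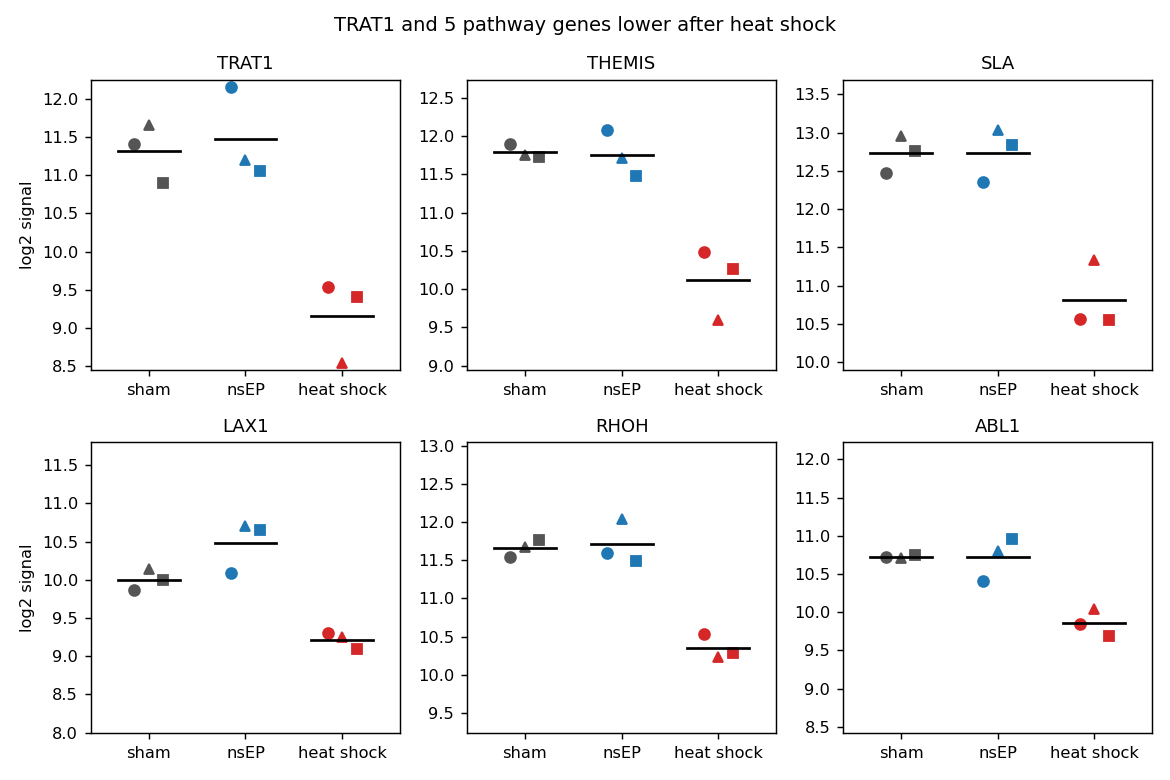
Log2 signal of TRAT1 and of 5 pathway genes called after heat shock on each of the 9 arrays, by group, with circles, triangles and squares for replicates 1, 2 and 3 and a bar for the group mean. In each panel the 3 heat shock points lie below the 6 sham and nsEP points. For LAX1 and ABL1 the step is smaller than for SLA, THEMIS and RHOH.

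In the list of receptor chains and coreceptors 0 of 8 measured genes passed in any comparison. Of all genes 0.0607% were called for nsEP against sham, 5.71% for heat shock against sham and 5.99% for nsEP against heat shock. The list's median differences from sham were 0.13 after nsEP and 0.28 after heat shock, against -0.02 and 0.14 for all genes. TRBC1, a beta chain constant region, differed from sham by 0.18 after nsEP (adjusted p = 0.922) and was -0.17 for nsEP against heat shock. PTPRC, the CD45 phosphatase that keeps LCK ready, differed from sham by -0.58 after heat shock (adjusted p = 0.0933) and by 0.66 between nsEP and heat shock (adjusted p = 0.0518). Under 4 of 16 alternatives the former passed and under 7 of 16 the latter, centring among them (-0.89, adjusted p = 0.0113, and 0.98, adjusted p = 0.0067), and without nsEP replicate 3 the latter was 0.81 (adjusted p = 0.0128). CD6, a surface receptor that modulates the synapse, was 0.48 and 0.47 above sham after nsEP and heat shock (adjusted p = 0.689 and 0.260). The probe sets of these genes did not run alike. The 7 of CD6 ran from -0.43 to 0.64 after nsEP and from -1.05 to 0.47 after heat shock. The 5 of PTPRC ran from -0.65 to 0.76 after heat shock and from -0.61 to 1.47 for nsEP against heat shock.

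Downstream of LAT 0 of 17 measured genes passed at the probe set that stands for the gene. Of all genes 0.0607% were called after nsEP and 5.71% after heat shock, and 5.99% between the 2 exposures. The list's medians were -0.03 after nsEP and 0.05 after heat shock, against -0.02 and 0.14 for all genes. RASGRP1, which loads RAS with GTP, differed from sham by -0.72 after heat shock (adjusted p = 0.0768), and ITPKB, an inositol trisphosphate kinase, by -1.61 (adjusted p = 0.0708). RASGRP1 passed under 6 of 16 alternatives and ITPKB under 5 of 16, both with centring (-1.03, adjusted p = 0.0111, and -1.91, adjusted p = 0.0230). Leaving out sham replicate 3 gave -0.94 for RASGRP1 (adjusted p = 0.0324). DGKZ, a diacylglycerol kinase that ends the RASGRP1 signal, differed from sham by -0.63 after nsEP (adjusted p = 0.509). SOS1, a RAS exchange factor, differed from sham by -0.30 after nsEP at 227426_at (adjusted p = 0.817). A dimmer SOS1 probe set, 230337_at, passed as lower after nsEP than after heat shock (-1.46, adjusted p = 0.0170). BCL10, a scaffold of the NF-kB branch, stood apart between its own probe sets and was named after its values were seen. Its 1557257_at had means of 6.81 in sham, 8.47 in nsEP and 8.35 in heat shock and rose by 1.66 after nsEP (adjusted p = 0.0252) and by 1.54 after heat shock (adjusted p = 0.0026). Its 1557258_a_at differed by 0.69 after nsEP and rose by 1.16 after heat shock (adjusted p = 0.0165), whereas 205263_at, the brightest, differed by 0.01 and 0.14 and did not pass.

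The counterparts that do these jobs in B, NK and myeloid cells gave 0 of 12 calls at the probe set that stands for the gene. Of all genes 0.0607% were called after nsEP and 5.71% after heat shock, and 5.99% between the 2 exposures. Their medians were 0.09 after nsEP and 0.35 after heat shock, against -0.02 and 0.14 for all genes. BLNK, the B cell counterpart of LCP2, had means of 5.81 in sham, 4.48 in nsEP and 6.65 in heat shock, in the second quartile of signal, and differed from sham by -1.33 after nsEP (adjusted p = 0.817) and by -2.17 between nsEP and heat shock (adjusted p = 0.160). TYROBP, an NK and myeloid counterpart of CD247, was 1.44 above sham after heat shock (adjusted p = 0.320), HCST was 0.43 above it after nsEP (adjusted p = 0.846) and PLCG2 was 0.62 above it after heat shock (adjusted p = 0.294). A dimmer PLCG2 probe set, 230917_at, was lower after nsEP than after heat shock (-1.13, adjusted p = 0.0332).

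Of 13 measured T cell markers outside the members, 2 fell after heat shock, where 3.99% of all genes were called lower. CD2, an adhesion receptor of T cells, fell by 1.79 (adjusted p = 7.4e-05), and CD28, the costimulatory receptor, by 1.01 (adjusted p = 0.0115). The summed signal of the 13 was 53243 to 55598 in sham, 48843 to 65751 in nsEP and 47458 to 58526 in heat shock. Of the 7 measured myeloid markers 1 rose, where 1.72% of all genes were called higher. It was CD14, a probe set in the dimmest quartile of signal, from 2.29 in sham to 7.07 after heat shock (adjusted p = 0.0019). The summed signal of the 7 was 447 to 492 in sham and 753 to 921 after heat shock. Of the 7 measured B cell markers and the 7 measured NK cell markers 0 passed, with sums of 756 to 966 and 713 to 1337 in sham and of 1091 to 1331 and 863 to 1388 after heat shock. The part of these markers in the fall of TRAT1 was not tested.

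The genes whose 9 values ran most like those of TRAT1, by the root mean square difference of log2 values after each was centred on its mean, were sought among 22502 named probe sets at or above the median signal. They were THEMIS (0.229 at 1558971_at), WDR89 (0.272), FADD (0.277), MED4 (0.315) and ZNF91 (0.366). In all 5 the signal was lower after heat shock than in sham, by -1.89, -1.96, -2.20, -2.56 and -2.46, and the nsEP differences from sham ran from -0.58 to 0.05. THEMIS was also on the adaptor list. For LCK the nearest were UBXN1 (0.072), SHISA5 (0.073), ASXL2 (0.077), ADGB-DT (0.082) and ICAM3 (0.082), and since LCK varied little, many flat probe sets lie close to it. Each likeness rests on 9 arrays in 3 groups and is a description.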

How the data were processed

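Transcripts of Jurkat cells were measured on 9 Affymetrix HG-U133 Plus 2.0 arrays, 3 each for sham, nsEP and heat shock, grouped by the sample titles. The deposited values were log2 signals, which the authors made with MAS5, named in the submitters' processing notes. MAS5 turns each probe set into 1 signal and scales arrays to a common trimmed mean, here about 500.1 with the lowest and highest 2% left out. Arrays were not quantile normalized and dim probe sets were kept, so dim probe sets scatter widely. The number of arrays limits precision.

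Probe sets were named through the platform's probe table. Of 54675, 62 Affymetrix controls were left out. Of the remaining 54613, 41091 had 1 symbol, 1801 several and 11721 none, and genes were named only from the first. All 9 arrays entered 1 fit in limma 3.58.1 (R 4.3.3) with a variance trend. Tests were two-sided, and p-values were adjusted by Benjamini-Hochberg across the whole array and called under an adjusted p of 0.05. The methods' t-test at the study's thresholds was a p of 0.05 or less, taken as unadjusted, with a log2 difference of at least 2. The fit was tested on simulated data.

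The members and the gene lists were chosen with earlier results of these data known. The text names all member probe sets, up to 4 called genes per pathway list and comparison by size of difference or the 2 with the smallest p where none passed, HSPA6 and FOS as a check of the exposures, and the 5 genes nearest to TRAT1 and to LCK. CD2, CD28 and CD14 among the markers, BCL10, FYN and the other probe sets of pathway genes were named after their values were seen. Alternatives covered scaling, a signal offset of 32, a filter on dim probe sets, the variance prior, array weights, the arrays fitted, the replicate block and leaving out each array. Listed genes for which no probe set carried the symbol alone were not analysed here.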

Additional observations from a re-analysis of the deposited data

How the results depend on the processing

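For nsEP against sham, 0 member probe sets and 0 pathway genes were called under every alternative run, except 1 pathway gene, BCL10, where any probe set could stand for a gene. For the 9 members, heat shock against sham gave 2 calls with arrays centred on their medians, 3 with spike-in scaling and 0 with the methods' t-test after adjustment. For nsEP against heat shock these gave 3, 4 and 0, and 1 to 2 with each array left out, the 2 without heat shock replicate 2. TRAT1 was called under 15 of 16 alternatives in each comparison with heat shock. Of the 18 probe sets, 7 changed sign for heat shock against sham with spike-in scaling, none of them called.

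For pathway genes, 6 calls for heat shock against sham became 19 with centring, 20 with spike-in scaling, 10 with array weights, 3 without the variance trend, and 0 at the study's t-test thresholds or 1 after adjustment. The 7 calls for nsEP against heat shock became 14, 12, 9, 4, 0 and 0. Leaving out 1 array gave 4 to 6 and 6 to 11, the latter 11 (8 higher, and 3 lower, DGKZ, SH3BP2 and WAS) without nsEP replicate 3. The share of called probe sets that were higher after heat shock was 43.4% as deposited, 15.6% with centring, 4.03% with spike-in scaling and 66.7% without the trend, and for higher after nsEP than after heat shock it was 46.6%, 79.7%, 94.2% and 27.3%. Counts over all 54613 probe sets also moved with the scaling. Heat shock against sham gave 1289 lower and 987 higher as deposited, 3857 and 714 with centring and 4638 and 195 with spike-in scaling. For nsEP against heat shock they were 1261 higher and 1446 lower, 3819 and 973, and 3304 and 202, in the same order. The cause of these shifts was not tested.

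Each array's deviations from its group mean, over probe sets at or above the median signal, were correlated between groups. Same-numbered samples gave -0.16 to 0.21 and differently numbered samples -0.26 to 0.24, so the numbers were not taken as pairs. With the replicate block, 0, 1 and 1 members and 0, 9 and 10 pathway genes were called, in the order nsEP from sham, heat shock from sham, nsEP from heat shock.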
